A study of Homo sapiens with 9 samples.

Results

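The BCL2 family holds the proteins that decide whether the outer membrane of the mitochondrion is kept intact or opened, and 10 of its genes, taken by name, are described here. The list sets no threshold on their values, but it was drawn up with earlier results of these data known. They are the survival genes BCL2, BCL2L1, MCL1 and BCL2A1, the effector genes BAX and BAK1, and the BH3-only genes BCL2L11, PMAIP1, BBC3 and BID. All 10 were found among the 16612 genes of the count table, and all 10 passed the filter on low counts, which kept 16312 genes. The RNA came from HNT34, a human acute myeloid leukemia (AML) cell line with a t(3;3) rearrangement and high expression of EVI1, a transcription factor encoded by the MECOM locus. HNT34 cells had been transduced with a lentiviral vector carrying a non-targeting shRNA (NT), the EVI1 shRNA sh#16 or the EVI1 shRNA sh#87, selected with puromycin and collected 3 days after selection. Every group has 3 libraries, all from this 1 line, and all of them carry the vector and had the selection. The sources used here do not say whether the 3 libraries of a group came from separate cultures, so p-values measure the spread between these libraries, which may be technical.

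In the mitochondrial pathway of apoptosis, the effectors BAX and BAK form pores in the outer membrane, through which cytochrome c leaves to start the caspase cascade. The survival proteins hold the effectors and their activators in check, and BH3-only proteins either occupy the groove of the survival proteins or activate the effectors directly. The binding is selective, with NOXA, the product of PMAIP1, favoring MCL-1 and BCL2A1, and with BIM, the product of BCL2L11, binding all survival proteins. Myeloid leukemia cells often rely on BCL-2 and MCL-1, and the BCL-2 inhibitor venetoclax is used against AML. Much of this control acts on proteins, which were not measured in these libraries.

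With both shRNAs, the survival transcripts moved apart. BCL2, BCL2L1 and BCL2A1 fell to between 26.1% and 40.4% of the NT level, while MCL1 rose 1.77-fold. Among the effectors, BAK1 rose 2.68-fold and BAX was not called. Of the BH3-only genes, PMAIP1 fell to 36.1% and BID to 51.2% of NT, BCL2L11 rose 1.44-fold and BBC3 was not called. A gene was called at a Benjamini-Hochberg adjusted p of at most 0.01 over all genes tested, by the quasi-likelihood test of edgeR. Thus 3 of the 10 members were higher and 5 lower with both shRNAs as 1 group, on a background in which 30.1% of all genes tested were called higher and 29.7% lower. The same counts of 3 higher and 5 lower were obtained with sh#16 alone, where the background was 29.8% higher and 30.2% lower, and with sh#87 alone, where it was 34.3% higher and 33.6% lower. Members were thus called higher about as often as other genes, and nothing particular to the family is read from either share. The median log2 fold change with both shRNAs was -0.51 over the members and 0.05 over all genes tested.

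The silencing was checked first. MECOM stood at 571, 504 and 440.5 CPM (counts scaled to the library size, after TMM normalization) in NT replicates 1 to 3, at 145, 143 and 145 CPM with sh#16, and at 109, 107 and 106 CPM with sh#87. Its log2 fold change was -1.81 ± 0.09 (SE) with sh#16 and -2.23 ± 0.09 with sh#87. No knockdown library overlapped the NT libraries, as the labels imply. Libraries held from 17096170 to 43502389 counts. The 3 NT libraries were the most spread, with a biological coefficient of variation of 25.0%, against 3.77% for sh#16 and 6.98% for sh#87. Mitochondrially encoded genes took 15.9%, 11.5% and 4.69% of the counts in NT replicates 1, 2 and 3, while they took between 2.69% and 5.97% in the knockdown libraries. NT replicates 1 and 2 stand apart in this respect, and the members are given below with and without them. Myeloid blast markers, of which 6 of 8 were in the table, summed to between 2005 and 2121 CPM in NT, 629 and 637 CPM with sh#16, and 352 and 357 CPM with sh#87. Most of this fall was in PTPRC (821 to 895 CPM in NT, 96.4 to 148 after knockdown) and CD34 (667 to 769, then 41.2 to 118). KIT and SPI1 were lower too. CD33 changed little (40.0 to 44.5 in NT, 33.1 to 39.3 after knockdown). ANPEP with sh#16 (278 to 288) lay within its NT range (217 to 301) and was lower with sh#87 (137 to 143). Markers of mature monocytes and granulocytes (4 of 8 in the table) summed to between 40.3 and 53.1 CPM in NT, 87.9 and 89.1 CPM with sh#16, and 59.8 and 63.95 CPM with sh#87. This sum follows ITGAM (31.2 to 37.7 CPM in NT, 80.3 to 80.8 with sh#16 and 56.3 to 60.7 with sh#87). LYZ was higher too, at 0.516 to 0.734 CPM in NT, 2.77 to 3.12 with sh#16 and 0.938 to 1.25 with sh#87. CSF1R went the other way, between 7.35 and 13.4 CPM in NT and between 1.41 and 3.33 CPM after knockdown. S100A9 was split, at 1.13 to 1.33 CPM in NT, 1.52 to 2.53 with sh#16 and 0.356 to 0.790 with sh#87. In the megakaryocyte sum that follows, ITGB3 was higher in every knockdown library than in NT, against the direction of the sum, at levels under 4 CPM. Megakaryocyte markers (2 of 6) summed to between 109 and 267 CPM in NT and to between 32.3 and 70.1 CPM in knockdown libraries, and the 1 erythroid marker of 7 in the table, EPOR, lay between 1.46 and 2.87 CPM in NT and between 9.76 and 14.5 CPM after knockdown. Lymphoid markers (3 of 6) were between 23.5 and 47.5 CPM in NT and between 4.07 and 9.51 CPM after knockdown. For the epithelial and packaging-line markers (2 of 4, with EPCAM and CDH1 not in the table) the sums were between 126 and 138 CPM in NT and between 69.8 and 99.4 CPM after knockdown. The part of these differences in the changes of the members was not tested, and in RNA of whole cultures fewer cells that express a gene and less RNA per cell cannot be told apart.

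**Figure D1:**
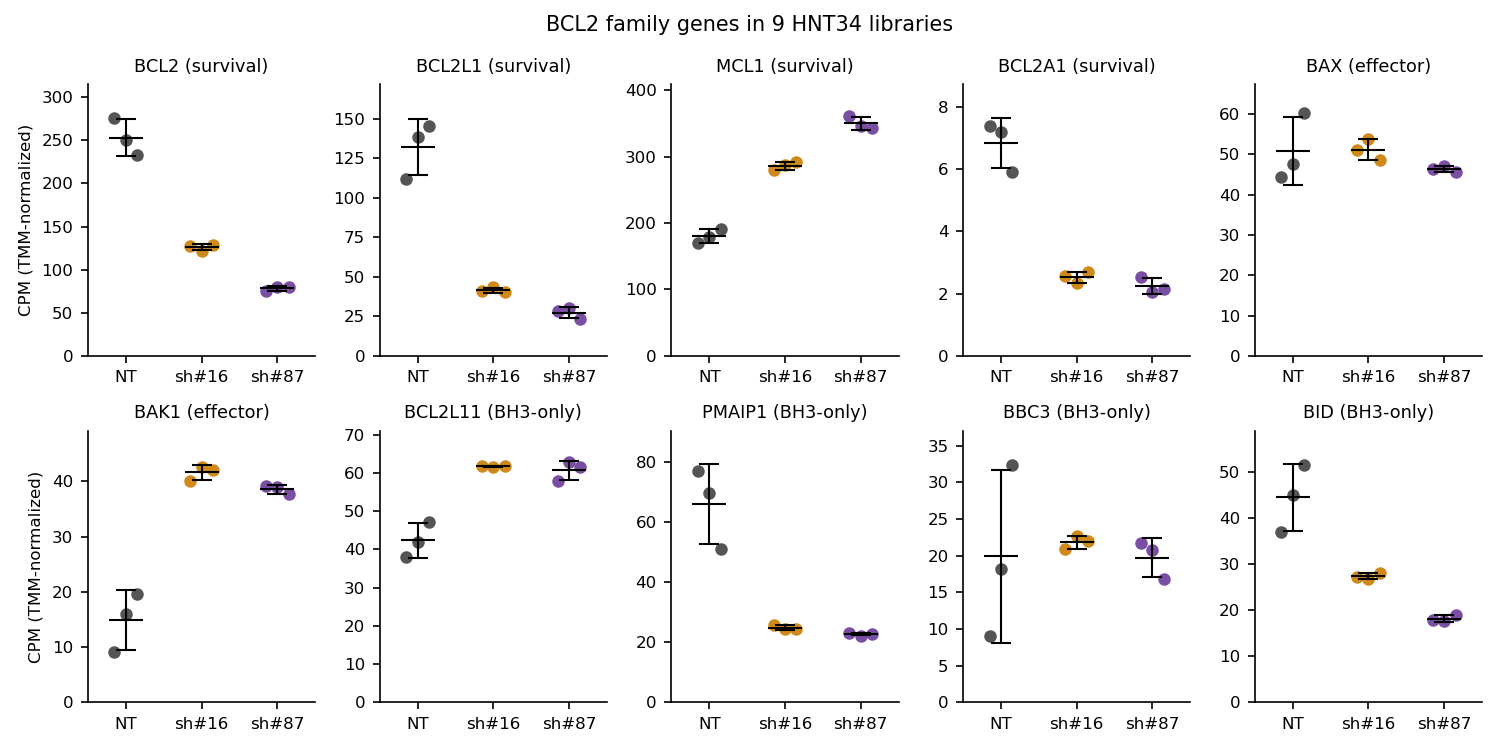
TMM-normalized CPM (vertical axis, linear, from 0) of the 10 BCL2 family genes in NT, sh#16 and sh#87 libraries. Points are libraries in the order of replicates 1 to 3, long bars are means and error bars are SD (n = 3). BCL2, BCL2L1, BCL2A1, PMAIP1 and BID lie below every NT library after knockdown, MCL1, BAK1 and BCL2L11 lie above, and BAX and BBC3 overlap.

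BCL2L1, which encodes the survival protein BCL-xL, had the largest fall of the family. The gene lies at chr20:31664452-31723963 (GRCh38.p14, RefSeq). It was at 112, 139 and 145 CPM in the NT libraries, at 40.8, 43.5 and 40.4 CPM with sh#16 and at 28.4, 30.0 and 23.4 CPM with sh#87. The lowest NT library was thus above every knockdown library, and every sh#87 library was below every sh#16 library. The log2 fold change was -1.67 ± 0.12 with sh#16 (edgeR, adjusted p = 2.86e-06) and -2.27 ± 0.12 with sh#87 (edgeR, adjusted p = 3.18e-07). Of all members, BCL2L1 with sh#87 was the only one past the absolute log2 fold change of 2 that the study used as a size threshold. Over all genes tested, 18.9% were past this threshold and called with sh#87, 12.8% with sh#16 and 15.4% with both. BCL2L1 also makes a short, pro-apoptotic splice form, BCL-xS, and counts per gene do not separate the forms. The 250 bases before the annotated 5′ end of BCL2L1, given as the upstream region of the member with the largest fall, read as follows on the minus strand (chr20:31723964-31724213, RefSeq, GRCh38.p14).
BCL2L1: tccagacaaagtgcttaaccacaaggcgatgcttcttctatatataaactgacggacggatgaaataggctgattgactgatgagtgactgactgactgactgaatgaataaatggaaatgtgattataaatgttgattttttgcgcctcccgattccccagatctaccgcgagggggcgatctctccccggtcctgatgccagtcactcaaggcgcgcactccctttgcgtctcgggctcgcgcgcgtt

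BCL2, the founding survival gene and the target of venetoclax, had the second largest fall of the members with sh#87. It lies at chr18:63123346-63320090 and had 276, 251 and 233 CPM in NT, 127, 122 and 129 CPM with sh#16, and 75.1, 79.9 and 80.3 CPM with sh#87. The 3 groups did not overlap, with sh#16 between NT and sh#87. BCL2 was at 49.8% of NT with sh#16 (log2 fold change -1.01 ± 0.07, edgeR adjusted p = 2.84e-06) and at 31.0% with sh#87 (-1.69 ± 0.07, edgeR adjusted p = 9.50e-08).

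BCL2A1, a survival gene known as a target of NF-kappaB in blood cells, had low counts in all groups, between 42 and 177 per library. Its gene lies at chr15:79960892-79971196, and the values were 7.40, 7.20 and 5.90 CPM in NT, 2.57, 2.33 and 2.68 CPM with sh#16, and 2.54, 2.06 and 2.14 CPM with sh#87. Every knockdown library was below every NT library, while the sh#16 and sh#87 libraries overlapped. The log2 fold change was -1.44 ± 0.15 with sh#16 (edgeR, adjusted p = 2.42e-05) and -1.60 ± 0.15 with sh#87 (edgeR, adjusted p = 9.72e-06).

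MCL1, which encodes a survival protein of rapid turnover, was the exception among the 4 survival genes. The gene lies at chr1:150574558-150579610. It was at 170.0, 179 and 191 CPM in NT, at 279.5, 287 and 292 CPM with sh#16 and at 362, 345 and 343 CPM with sh#87. Again the 3 groups did not overlap, in the order opposite to that of BCL2. The rise was 1.59-fold with sh#16 (log2 fold change 0.67 ± 0.06, edgeR adjusted p = 1.37e-05) and 1.95-fold with sh#87 (0.96 ± 0.06, edgeR adjusted p = 9.48e-07). MCL1 also has splice forms that counts per gene do not separate.

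The opposite moves changed the make-up of the survival transcripts. Levels of different genes were compared as CPM per kilobase of 1 transcript per gene, and the 4 survival genes were summed on this scale. The sum was 142 ± 5.49 CPM per kilobase in NT (SD, n = 3), 110 ± 1.65 with sh#16 and 113 ± 3.21 with sh#87. MCL1 held 32.0% ± 0.946 of the sum in NT, 65.8% ± 0.433 with sh#16 and 78.1% ± 0.828 with sh#87. BCL2L1 held 35.9% ± 3.55 in NT, 14.7% ± 0.624 with sh#16 and 9.33% ± 1.02 with sh#87, and BCL2 held 25.9% ± 3.25, 16.6% ± 0.540 and 10.1% ± 0.637. In NT the shares of MCL1 (31.3% to 33.0%) and BCL2L1 (31.9% to 38.6%) overlapped, whereas in every knockdown library MCL1 held the largest share of the 4. Without division by length, MCL1 held 31.5% of the summed CPM in NT, 62.7% with sh#16 and 76.4% with sh#87, and BCL2 rather than BCL2L1 held the largest share in NT, 44.3%. The ratio of MCL1 to BCL2 counts within a library, which no scaling of libraries can change, ran from 0.616 to 0.821 in NT, from 2.19 to 2.36 with sh#16 and from 4.27 to 4.82 with sh#87. These shares and ratios restate the changes of the single genes and were not tested.

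**Figure D2:**
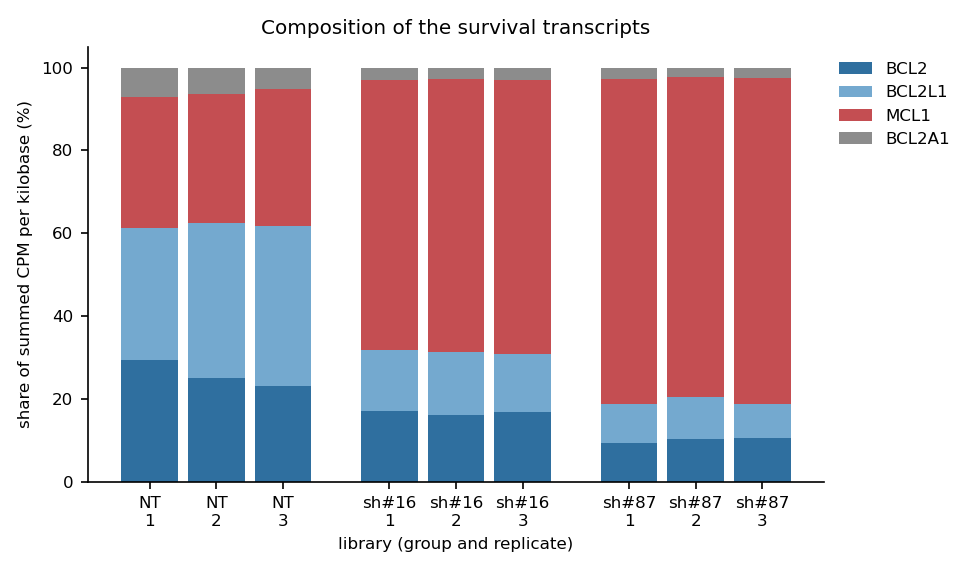
Share of BCL2, BCL2L1, MCL1 and BCL2A1 in their summed CPM per kilobase (vertical axis, percent, each bar adding to the whole) in each of the 9 libraries. MCL1 takes between 31.3% and 33.0% in NT, between 65.3% and 66.1% with sh#16 and between 77.1% and 78.7% with sh#87 libraries.

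The 2 effector genes differed from each other. BAK1 lies at chr6:33572552-33580276 and encodes BAK, which resides in the outer mitochondrial membrane. It had 9.07, 16.0 and 19.7 CPM in NT, 40.1, 42.6 and 42.1 CPM with sh#16, and 39.1, 39.1 and 37.7 CPM with sh#87. All knockdown libraries were above all NT libraries, although NT replicate 1 was at less than the level of either other NT library. The log2 fold change was 1.47 ± 0.22 with sh#16 (edgeR, adjusted p = 0.000298) and 1.37 ± 0.22 with sh#87 (edgeR, adjusted p = 0.000392). The table also holds BAK1P1, a near-identical processed copy, with between 4 and 22 counts per library where BAK1 had between 211 and 1973, and how reads common to both copies were counted is not given in the sources used here. BAX lies at chr19:48954875-48961798 and encodes the effector that moves from the cytosol to mitochondria. It had 44.4, 47.6 and 60.3 CPM in NT, 51.0, 53.9 and 48.6 CPM with sh#16, and 46.4, 47.2 and 45.6 CPM with sh#87. The knockdown libraries lay within the range of NT. The log2 fold change with both shRNAs was -0.06 (95% interval -0.30 to 0.18, edgeR, adjusted p = 0.645), an interval that leaves out a change of the size seen for BAK1.

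While BAX was not called, its ratio to the survival genes that fell was higher after knockdown. The ratio of BAX to BCL2L1 counts ran from 0.343 to 0.415 in NT, from 1.20 to 1.25 with sh#16 and from 1.57 to 1.95 with sh#87. The ratio of BAX to BCL2 counts ran from 0.161 to 0.259, from 0.377 to 0.442 and from 0.568 to 0.618 in the same groups. Neither ratio overlapped between groups, and neither is corrected for transcript length or GC content. After such a correction, given below, the log2 fold change with both shRNAs was -0.59 for BAX, -1.13 for BCL2 and -2.25 for BCL2L1. For BAK1 and MCL1, which both rose, the ratio of counts ran from 0.0534 to 0.103 in NT, from 0.143 to 0.148 with sh#16 and from 0.108 to 0.113 with sh#87. Such ratios show how a pair of genes moved against each other, not which has more transcripts.

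Upstream regions were searched for letters bound by factors of interest, on both strands. The motifs were the E-box CACGTG, bound by MYC and its partners, AGATAA for GATA factors, and GACAAGATA, a core of the sequence bound by the first zinc fingers of EVI1, which shares letters with AGATAA only in part. RefSeq windows of 250 bases before a transcript start were matched by symbol for 9 members, all but MCL1, with 14 windows among them. The E-box was in 4 of the 14 windows of the members, on a background of 6.345% of 35116 windows. These were windows of BAX, BBC3 and BID, and those of BID overlap and hold the same copy. Of these windows only that of BAX precedes the annotated 5′ end of its gene. The other motifs were in none of the members' windows and were in 9.167% and 0.08543% of all windows. A match of letters is a description, and binding was not measured in these libraries. The window of BAX, the effector with no call, is shown because it holds 4 copies of the E-box, in capitals, and that of BAK1, the effector that rose, because it holds none. Both precede the annotated 5′ end of the gene (RefSeq, GRCh38.p14), BAX on the plus strand at chr19:48954625-48954874 and BAK1 on the minus strand at chr6:33580277-33580526, and were chosen after the matches had been seen.
BAX: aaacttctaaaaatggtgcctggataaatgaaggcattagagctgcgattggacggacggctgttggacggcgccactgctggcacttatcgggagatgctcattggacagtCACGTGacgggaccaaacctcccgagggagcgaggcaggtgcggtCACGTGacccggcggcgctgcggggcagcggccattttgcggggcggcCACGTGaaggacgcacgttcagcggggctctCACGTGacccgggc
BAK1: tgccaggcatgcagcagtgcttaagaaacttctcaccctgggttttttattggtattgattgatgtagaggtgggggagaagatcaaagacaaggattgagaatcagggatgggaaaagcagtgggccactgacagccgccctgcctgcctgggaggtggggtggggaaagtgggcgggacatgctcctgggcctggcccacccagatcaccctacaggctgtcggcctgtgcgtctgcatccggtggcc

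PMAIP1 had the largest fall of the BH3-only genes. It lies at chr18:59899996-59904305 and encodes NOXA, which binds MCL-1 and promotes its degradation. PMAIP1 was at 77.0, 69.8 and 51.1 CPM in NT, 25.8, 24.4 and 24.4 CPM with sh#16, and 23.1, 22.3 and 22.9 CPM with sh#87. Each knockdown library was below each NT library. Its log2 fold change was -1.41 ± 0.14 with sh#16 (edgeR, adjusted p = 1.68e-05) and -1.54 ± 0.14 with sh#87 (edgeR, adjusted p = 6.94e-06). Since its partner MCL1 rose, the ratio of PMAIP1 to MCL1 counts ran from 0.268 to 0.453 in NT, from 0.0838 to 0.0922 with sh#16 and from 0.0638 to 0.0668 with sh#87, and the groups did not overlap.

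BID, which is cut by caspase-8 and so links death receptors to mitochondria, lies at chr22:17734138-17774665. It had 36.9, 45.2 and 51.6 CPM in NT, 27.2, 26.9 and 28.1 CPM with sh#16, and 17.8, 17.6 and 19.1 CPM with sh#87. The groups formed separate steps from NT down to sh#87. BID was at 61.5% of NT with sh#16 (log2 fold change -0.70 ± 0.11, edgeR adjusted p = 0.000463) and at 40.8% with sh#87 (-1.30 ± 0.12, edgeR adjusted p = 7.60e-06).

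BCL2L11 lies at chr2:111120914-111168445 and encodes BIM, an activator of BAX and BAK that is known as a target of FOXO factors. It was at 38.1, 41.9 and 47.1 CPM in NT, 61.8, 61.6 and 61.7 CPM with sh#16, and 57.9, 62.7 and 61.5 CPM with sh#87. The NT libraries were all lower than the knockdown libraries, which overlapped between shRNAs. The rise was small and close to equal with each, with a log2 fold change of 0.54 ± 0.08 with sh#16 (edgeR, adjusted p = 0.000317) and 0.52 ± 0.08 with sh#87 (edgeR, adjusted p = 0.000346). The ratio of BCL2L11 to BCL2 counts rose from between 0.138 and 0.203 in NT to between 0.478 and 0.506 with sh#16 and between 0.766 and 0.786 with sh#87, whereas that of BCL2L11 to MCL1 went from between 0.224 and 0.247 in NT to between 0.212 and 0.221 with sh#16 and between 0.160 and 0.182 with sh#87. BIM has several splice forms of different potency, which counts per gene do not separate.

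BBC3 encodes PUMA, an activator of BAX and BAK, and lies at chr19:47220824-47232860. It had 9.07, 18.2 and 32.4 CPM in NT, 20.9, 22.6 and 22.0 CPM with sh#16, and 21.7, 20.8 and 16.8 CPM with sh#87. NT replicate 1 was below and NT replicate 3 above every knockdown library. The highest NT value was 3.57 times the lowest, a spread wider than that of 98.4% of the 10800 genes with a mean of at least 5 CPM in NT. The log2 fold change with both shRNAs was 0.06 ± 0.30 (95% interval -0.60 to 0.72, edgeR, adjusted p = 0.865), so these libraries do not resolve a change of BBC3 in either direction.

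**Figure D3:**
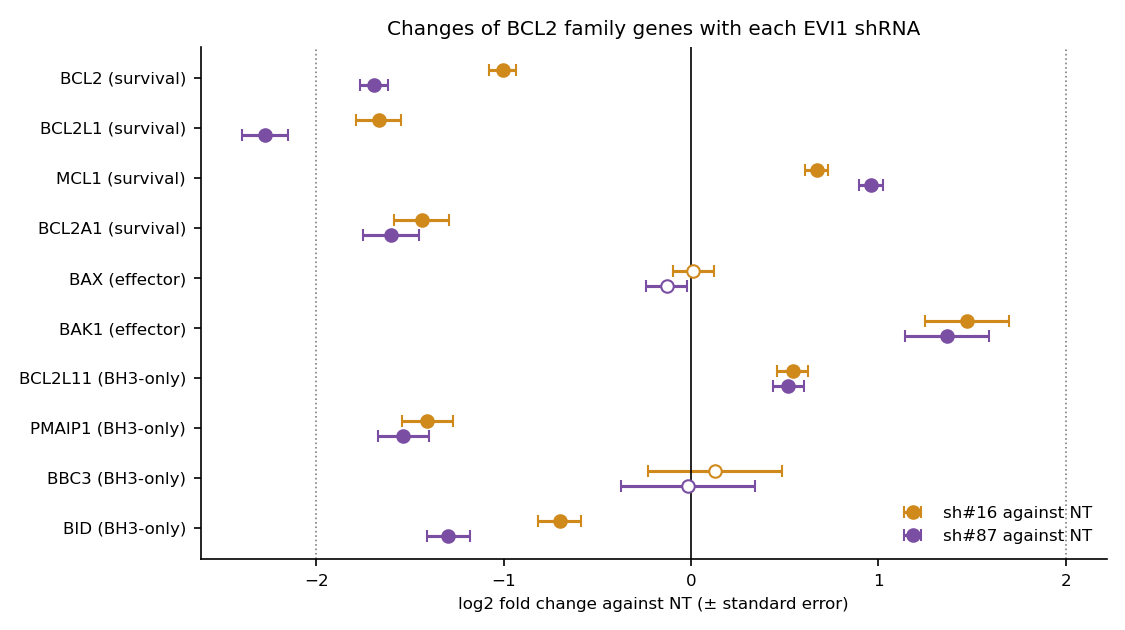
Log2 fold change against NT (horizontal axis) of the 10 BCL2 family genes with sh#16 and with sh#87. Bars are standard errors from edgeR, filled symbols are called genes (adjusted p of 0.01 or less), open symbols are genes not called, and dotted lines mark a log2 fold change of 2 in either direction. For 8 genes both shRNAs are called in the same direction, from -2.27 for BCL2L1 with sh#87 to 1.47 for BAK1 with sh#16.

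In the table of all genes, 33.9% of those tested had every knockdown library above every NT library and 32.1% every knockdown library below. Of the members, 3 were above and 5 below. With each shRNA called alone in the same direction, the members again counted 3 higher and 5 lower, where 26.7% of all genes tested were higher and 27.5% lower. The shRNAs were compared with the same NT libraries, so these calls are not independent of each other.

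The direct comparison of sh#87 with sh#16, which does not rest on the NT levels, called 4 of the 10 members. MCL1 was higher with sh#87 (log2 difference 0.29, 95% interval 0.15 to 0.43, edgeR adjusted p = 0.00746), and 8.29% of all genes tested were called higher. BCL2 was lower (-0.69, -0.85 to -0.52, edgeR adjusted p = 0.000329), as were BCL2L1 (-0.61, -0.88 to -0.33, edgeR adjusted p = 0.00548) and BID (-0.59, -0.86 to -0.33, edgeR adjusted p = 0.00512), with 9.42% of all genes called lower. MECOM itself was at 74.3% of its sh#16 level with sh#87 (-0.43, -0.63 to -0.23, edgeR adjusted p = 0.00661). The fit takes 1 estimate of the spread from all 3 groups, so the calls of the members depend on the NT libraries too. The shares of all genes do as well. Under limma-voom with a weight per group, 3600 of 16312 genes were called higher and 3790 lower. All 4 members stayed called when NT replicate 1 or NT replicate 3 was left out. BCL2 alone was called when NT replicate 2 or any 1 knockdown library was left out. The sizes of the differences then lay between -0.68 and -0.51 for BCL2L1, 0.27 and 0.31 for MCL1, and -0.63 and -0.57 for BID. With the replicate number as a block, BCL2L1 (edgeR, adjusted p = 0.0128) and MCL1 (edgeR, adjusted p = 0.0263) were not called. The other 6 members were not called, with intervals of the difference from -0.51 to 0.19 for BCL2A1, -0.39 to 0.11 for BAX, -0.60 to 0.38 for BAK1, -0.21 to 0.16 for BCL2L11, -0.43 to 0.18 for PMAIP1 and -0.95 to 0.67 for BBC3.

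With NT replicates 1 and 2 left out, the 8 members called kept their direction with each shRNA. A lone NT library has no spread of its own, and NT had the widest spread of the groups (25.0%, against 3.77% for sh#16 and 6.98% for sh#87). Effect sizes alone are therefore given for this setting. BAK1 then had a log2 fold change of 1.08 with sh#16 and 0.98 with sh#87, PMAIP1 of -1.04 and -1.15, BCL2L1 of -1.80 and -2.40, and MCL1 of 0.59 and 0.89. With both shRNAs as 1 group, the log2 fold change was -1.18 for BCL2 and 0.75 for MCL1. Against NT replicate 3 alone, the log2 fold change of BAX was -0.23 with sh#16 and -0.36 with sh#87, and that of BBC3 was -0.57 and -0.70. The GC content of the transcript used for length was 69.7% for BBC3, 60.8% for BAX and 58.6% for BAK1, the highest of the members, and all 3 were lowest in NT replicate 1 and highest in NT replicate 3, the libraries with the most and the fewest mitochondrial counts of the group. BCL2L1, MCL1, BCL2L11 and BID had the same order of the NT libraries, whereas PMAIP1, BCL2A1 and BCL2, with the lowest GC content of the members (36.7%, 40.4% and 44.4%), were highest in NT replicate 1 and lowest in NT replicate 3. After a loess correction of each library for transcript length and GC content, BAX (-0.59, edgeR adjusted p = 3.92e-05) and BBC3 (-1.02, edgeR adjusted p = 2.12e-05) were called lower with both shRNAs, and BAK1 rose by a log2 fold change of 1.03. Neither setting was planned, as each was added with the values in view, and the cause of the spread in NT was not tested.

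On the scale per kilobase, the order of the members changed after knockdown. In NT the order was BAX (63.9 ± 10.6 CPM per kilobase), BCL2L1 (51.3 ± 6.92), MCL1 (45.5 ± 2.64), BCL2 (36.8 ± 3.17), PMAIP1 (34.8 ± 7.04), BID (20.5 ± 3.37), BBC3 (10.8 ± 6.37), BCL2A1 (8.76 ± 1.04), BCL2L11 (8.31 ± 0.890) and BAK1 (6.89 ± 2.49). The libraries of neighbors in this order overlapped except between MCL1 and BCL2 and between PMAIP1 and BID. With sh#16, MCL1 came first (72.4 ± 1.55), followed by BAX (64.4 ± 3.30) and, at a distance, BAK1 (19.2 ± 0.622), which overlapped BCL2 (18.3 ± 0.555). With sh#87, MCL1 (88.6 ± 2.59), BAX (58.4 ± 1.0) and BAK1 (17.8 ± 0.373) did not overlap each other, and PMAIP1, BCL2L11, BCL2, BBC3 and BCL2L1 followed between 12.0 and 10.6, each overlapping its neighbor. BCL2A1 was last with both shRNAs, at 3.24 ± 0.228 and 2.87 ± 0.330. By group means, BAK1 thus went from the last place in NT, where its libraries overlapped those of BCL2L11, to the third.

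The genes whose pattern over the 9 libraries was nearest to that of BCL2L1, by the Euclidean distance of log2 CPM centered per gene, included SNTB1 (distance 0.33, log2 fold change with both shRNAs -1.88) and GPX7 (0.35, -1.82).

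Other genes of the pathway were taken from lists of 63 genes, of which 59 were in the table and 58 were tested, HRK being too low. With each shRNA alone, 15 were called higher, 20 lower and 23 not in 1 direction with both. Over all genes tested the shares were 26.7% higher and 27.5% lower, so nothing particular to the pathway is read from these counts. Among the other family members of the BH3-only class, BAD and BMF rose. BIK passed the filter on low counts only through the knockdown libraries, so its rise is not read as a result about the class. BIK went from a mean of 0.0222 CPM in NT, below the limit of 0.130 CPM that 3 counts allow in those libraries, to 1.18 ± 0.367 CPM with sh#16 and 0.543 ± 0.149 CPM with sh#87. BAD, which binds BCL-2 and BCL-xL, rose by a log2 fold change of 2.08 ± 0.37 with both shRNAs (edgeR, adjusted p = 0.000539), from 3.39 ± 2.51 CPM in NT to 14.1 ± 1.48 CPM with sh#16 and 14.9 ± 1.46 CPM with sh#87. BMF, which is held at the cytoskeleton until released, rose from 52.6 ± 8.43 CPM in NT to 140.3 ± 4.59 and 172.9 ± 1.82 CPM (1.57 ± 0.14, edgeR adjusted p = 4.14e-06). The remaining survival gene tested, BCL2L2, was called lower with sh#16 (-0.51) but not with sh#87 (-0.16). Of the 5 more distant family members, BCL2L12 (2.86 ± 0.37) and BCL2L15 (1.66 ± 0.32) rose, and BNIP3 (-0.62 ± 0.09) and BCL2L13 (-0.60 ± 0.11) fell. BCL2L12 was widely spread in NT, at 5.29 ± 3.63 CPM, against 35.5 ± 1.66 CPM with sh#16 and 42.5 ± 6.39 CPM with sh#87.

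Of the outer membrane partners of BAX and BAK, VDAC1 (-1.25 ± 0.18) and VDAC2 (-0.83 ± 0.15), the latter known to hold BAK, fell, and VDAC3 and MTCH2 were not called with both. Of the 5 ubiquitin ligase and deubiquitinase genes of MCL-1, FBXW7 was called higher with sh#87 (0.81) and not with sh#16 (0.41), and the other 4 were called with neither shRNA. Downstream of cytochrome c, APAF1, the scaffold of the apoptosome, rose by 1.46 ± 0.07 (edgeR, adjusted p = 1.06e-07) and CASP9, the caspase it activates, by 0.74 ± 0.13, CASP6 fell by 1.29 ± 0.18 on the log2 scale, and 5 of the 8 genes of this list, including CYCS, were not called with both. The inhibitor of apoptosis genes split into BIRC3 (2.59 ± 0.25), NAIP (1.05 ± 0.15), BIRC5 (0.84 ± 0.21) and BIRC2, which rose, and XIAP (-1.45 ± 0.11), the direct caspase inhibitor, which fell. In the death receptor pathway upstream of BID, FAS (-2.71 ± 0.12), CFLAR (-1.53 ± 0.10), a brake on caspase-8, and CASP8 (-1.15 ± 0.15) were among 5 genes that fell, and TRADD (1.12 ± 0.16) among 3 that rose, of 11 tested.

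Of 15 transcription factors known to act on BCL2 family genes, 9 fell and 1 rose with each shRNA, where 27.5% of all genes tested were called lower and 26.7% higher with each. STAT5A, an activator of BCL2L1 downstream of cytokine receptors, fell by 2.89 ± 0.17 on the log2 scale (edgeR, adjusted p = 2.93e-07). DDIT3 and ATF4, factors of the integrated stress response that act on PMAIP1 and BCL2L11, fell by 2.75 ± 0.33 and 2.48 ± 0.09. RELA was the gene of this list that rose, by 0.35 ± 0.08. FOXO1, FOXO3 and STAT3 were not called with either shRNA. The median log2 fold change of this list was -1.39, against 0.05 over all genes tested. The list was chosen with earlier results of these data known, so nothing particular to these factors is read from its counts or median. A shared direction of a factor and a member is a description, and no link between them was tested.

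**Figure D4:**
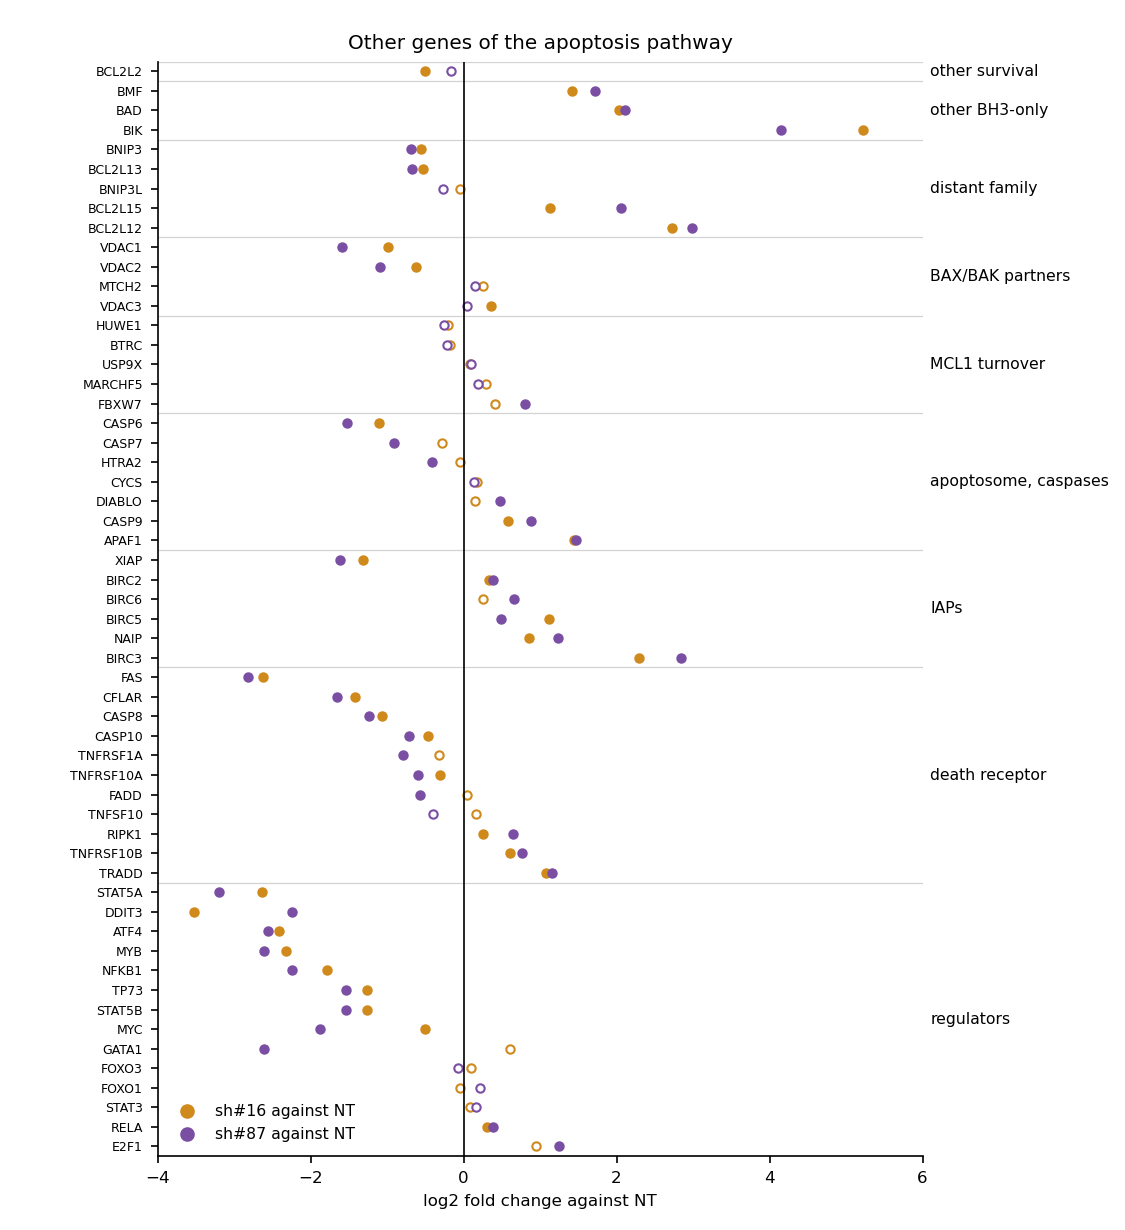
Log2 fold change against NT (horizontal axis) of other tested genes of the apoptosis pathway, not all of which are drawn, with sh#16 and sh#87, grouped by list (right). Filled symbols are called genes (adjusted p of 0.01 or less), open symbols genes not called. BAD and BMF lie right of 0 with both shRNAs, as does BIK, which passed the filter only through the knockdown libraries. STAT5A, DDIT3 and ATF4 are called lower with both.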

How the data were processed

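PolyA-selected RNA of 9 HNT34 libraries (NT, sh#16 and sh#87, 3 each) had been prepared with a strand-specific kit and sequenced on a HiSeq2500. Groups were taken from the sample titles, since 1 label field carries another shRNA number for the sh#87 libraries. As deposited, 1 table holds estimated counts by gene symbol for all libraries, and the authors did not normalize them. Per the file headers these are salmon output, whereas the methods name STAR with gene counts on GRCh38 and FastQC 1.3 (processing notes: STAR, GRCh38, FastQC). The header is shifted by 1 column against the 9 columns of values and was matched to them in order. All values were whole numbers, so rounding changed nothing. No row lacked a gene name.

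Counts were normalized and tested in R 4.3.3 with edgeR 4.0.16 (TMM, filterByExpr, quasi-likelihood test, Benjamini-Hochberg adjustment over 16312 genes). A 2-group fit served both shRNAs against NT, and a 3-group fit served all other comparisons, with an adjusted p of at most 0.01 for a call. Standard errors are the log2 fold change divided by the square root of F, and 95% intervals use the t distribution with the degrees of freedom of the fit. DESeq2 1.42.0 and limma-voom (limma 3.58.1) were alternatives, with RLE and upper-quartile scaling, other filters and thresholds, a replicate block, removal of mitochondrially encoded genes, and each library left out in turn. Transcript length and GC content were taken for a single transcript of each gene in the GRCh37 GENCODE reference, found for 14019 genes (84.4%) and for all 10 members. The loess correction used a span of 0.5 and degree 1. Depth was between 17096170 and 43502389 counts, and limits of detection of 3 counts cover counting error only. The fit of the knockdown libraries against NT was tested on simulated data. All simulated libraries had the same spread, so this test does not cover the wider spread of NT in the data. Same-numbered libraries did not deviate together (9 pairs, correlations from -0.14 to 0.08), so the numbers were not taken as pairs.

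The members and lists were chosen with earlier results of these data known. All 10 members are named, and from each list up to 4 genes called with each shRNA, those with the largest change. BIK, whose NT level lies below the limit, is given by its levels. RELA and NFKB1, the genes named as not called, and the ratios shown were chosen after their values had been seen. A few genes that the rules would name are not reported here. Genes of the lists that are not in the table, and other data of the study, were not analysed here. Python 3.11.15, pandas 2.3.3, numpy 2.4.6 and matplotlib 3.10.9 were used for summaries and figures.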

Additional observations from a re-analysis of the deposited data

Results flagged for a closer look

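In all, 4 of the 10 members differed between the shRNAs in the direct edgeR comparison of sh#87 with sh#16, 1 higher and 3 lower, where 8.29% of all genes tested were called higher and 9.42% lower. Under limma-voom with group weights, 3600 of 16312 genes were called higher and 3790 lower, so no excess of members is read. All 4 stayed called without NT replicate 1 or NT replicate 3. When NT replicate 2 or any 1 knockdown library was left out, only BCL2 was called. The log2 difference was -0.685 for BCL2, -0.607 for BCL2L1, 0.291 for MCL1 and -0.593 for BID. In each case the 3 sh#87 libraries were farther from NT than the 3 sh#16 libraries. MECOM was lower with sh#87 than with sh#16 as well, and the part of this in the 4 differences was not tested.

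Among the 6 knockdown libraries, 3 of 12 measures held a library far from the others, by its gap to the nearest library as a share of the whole range that exceeds Dixon's limit. Chance gives such a flag for about 1 in 20 groups. For BCL2L11 it was sh#87 replicate 1, at 57.9 CPM against 61.5 to 62.7 CPM in the others (0.745). For BBC3 it was sh#87 replicate 3, at 16.8 CPM (0.684). The total count was far higher in sh#16 replicate 2, with 43502389 counts (0.773).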

How the results depend on the processing

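The counts of members called against NT stayed at 8 of 10 with both shRNAs and with each alone under RLE and upper-quartile scaling, both other filters, DESeq2, limma-voom with and without group weights, the replicate block, removal of mitochondrially encoded genes, an adjusted p of at most 0.05 and each library left out in turn. A size threshold of 1 on the log2 scale left 5 with both shRNAs, 5 with sh#16 and 6 with sh#87. The length and GC correction called all 10. Calls with NT replicate 3 as the only control are not counted, since 1 library gives no spread for NT. Of all genes, the correction called 8919 of 13854 with both shRNAs, 9464 with sh#16 and 10190 with sh#87. For sh#87 against sh#16 the count of 4 became 2 with the replicate block, 0 with the size threshold of 1, and between 1 and 4 with 1 library left out. The block changed no other count. It moved the all-gene count of this comparison from 2890 to 1588, and leaving out 1 library moved it to between 1098 and 5326. The all-gene count was 4017 under DESeq2 and 7390 of 16312 under limma-voom with group weights. The background for the 4 members thus depends on the setting.

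Signs changed only for values near 0. With 1 library left out, the log2 fold change of BAX ran from -0.16 to 0.064 with both shRNAs (-0.06 with all libraries) and from -0.093 to 0.13 with sh#16 (0.01), that of BBC3 from -0.30 to 0.59 with both (0.06), -0.24 to 0.66 with sh#16 (0.13) and -0.37 to 0.52 with sh#87 (-0.02), and that of BCL2L11 from -0.048 to 0.011 between the shRNAs (-0.02). Upper-quartile scaling, which moved the median of all genes from 0.05 to 0.16, gave 0.054 for BAX with both. BAX with sh#16 was -0.0056 under RLE scaling, -0.0057 under DESeq2, -0.23 without NT replicates 1 and 2 and -0.56 after the length and GC correction. BBC3 was -0.63 with both and -0.57 with sh#16 without NT replicates 1 and 2, and -1.02 and -0.92 after the correction. With sh#87, BBC3 was 0.11 under upper-quartile scaling, 0.0016 with a mean of at least 10 counts, 0.14 and 0.13 under limma-voom without and with group weights, and 0.097 with the replicate block. Between the shRNAs, the correction gave 0.016 for BCL2L11 and 0.058 for PMAIP1. The cause was not tested. Depth limits BCL2A1, with as few as 42 counts in a library, more than the other members.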
